A study of Mus musculus with 6 samples.

Results

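The annexins are a family of proteins that bind acidic phospholipids when calcium is present, and S100 proteins are small calcium-sensing dimers, some of which clamp the tails of particular annexins. The set described here holds 8 annexin genes (Anxa1, Anxa2, Anxa3, Anxa4, Anxa5, Anxa6, Anxa7 and Anxa11) and the genes of 2 S100 partners (S100a10 and S100a11), taken by symbol from the deposited table, with transcripts summed per gene. These are 10 of 35970 gene symbols and 57 of 117486 transcripts. The genes were chosen by name with the TPM and fold changes of the comparison below already known, so their differences between the groups are given as a description, and the p-values of the fit over all genes are printed without being used as support.

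The samples were ribosome-bound RNA from the livers of 6 mice, 3 Neurl1b CRISPRi and 3 non-targeting. All 6 were Fah-/-;dCas9+ mice, which lack the last enzyme of tyrosine breakdown and can express a cleavage-dead Cas9 that represses the gene its guide RNA points to (CRISPRi). Each mouse was kept on 7.5 µg/mL nitisinone, which protects Fah-deficient liver, and was injected through the tail vein with 10 µg of a plasmid carrying Fah, ribosomal protein L10a fused to GFP and a guide, together with a virus that expresses Cre under the hepatocyte promoter TBG. The guide was against Neurl1b in the Neurl1b CRISPRi mice and was without a target in the non-targeting mice. Nitisinone was withheld from then on, so that cells given Fah could repopulate the liver, and 400 mg of liver was taken 4 weeks later for pull-down of tagged ribosomes (translating ribosome affinity purification). The labels give no age or sex.

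In the annexin family a conserved core meets the membrane, while a short variable tail sets the partner. The tail of annexin A2 binds a dimer of S100A10 (p11) to form a heterotetramer that bridges membranes, links them to cortical actin and captures plasminogen at the cell surface, and the tail of annexin A1 can bind S100A11 in the same manner. Several annexins are also recruited to torn plasma membranes, where they help to seal them. In liver, annexins and S100 proteins are known to be higher in bile duct and non-parenchymal cells, and in injured or regenerating hepatocytes, than in resting hepatocytes.

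Neurl1b, which encodes an E3 ubiquitin ligase for Notch ligands, had 0.295, 0.351 and 0.307 TPM in Neurl1b CRISPRi mice, against 1.22, 0.897 and 0.688 TPM in non-targeting mice. The groups did not overlap, and the Neurl1b CRISPRi mean was 33.9% of the non-targeting mean, but the gene lay below the mean of 1 TPM needed for the test. TPM values are length-corrected shares that sum to 1000000 in a library, so the depth of the libraries is unknown. Of the 10598 genes tested, 74.0% had a log2 fold change above 0, with a median of 0.18. Non-targeting mouse 1 lay nearer to the Neurl1b CRISPRi mean than to the mean of the other non-targeting mice for 76.6% of tested genes, on log2(TPM + 1). This held for 8 of the 10 annexin and S100 genes, all but Anxa1 and Anxa3, and values with and without this mouse are therefore given below.

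Taken as a group, the annexin and S100 genes took a larger share of ribosome-bound RNA in Neurl1b CRISPRi mice, though none passed the test over all genes. Their summed level was 3551, 3125 and 2713 TPM in Neurl1b CRISPRi mice, against 2637, 1337 and 2037 TPM in the non-targeting mice. The groups did not overlap, and the gap between CRISPRi mouse 3 and non-targeting mouse 1 was small. S100a10 and S100a11 together made up 68.0% to 71.6% of the sum in Neurl1b CRISPRi mice and 70.0% to 79.9% in non-targeting mice. In ribosome-bound RNA pooled over cells, the number of cells of a type and the RNA per cell cannot be told apart.

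**Figure D1:**
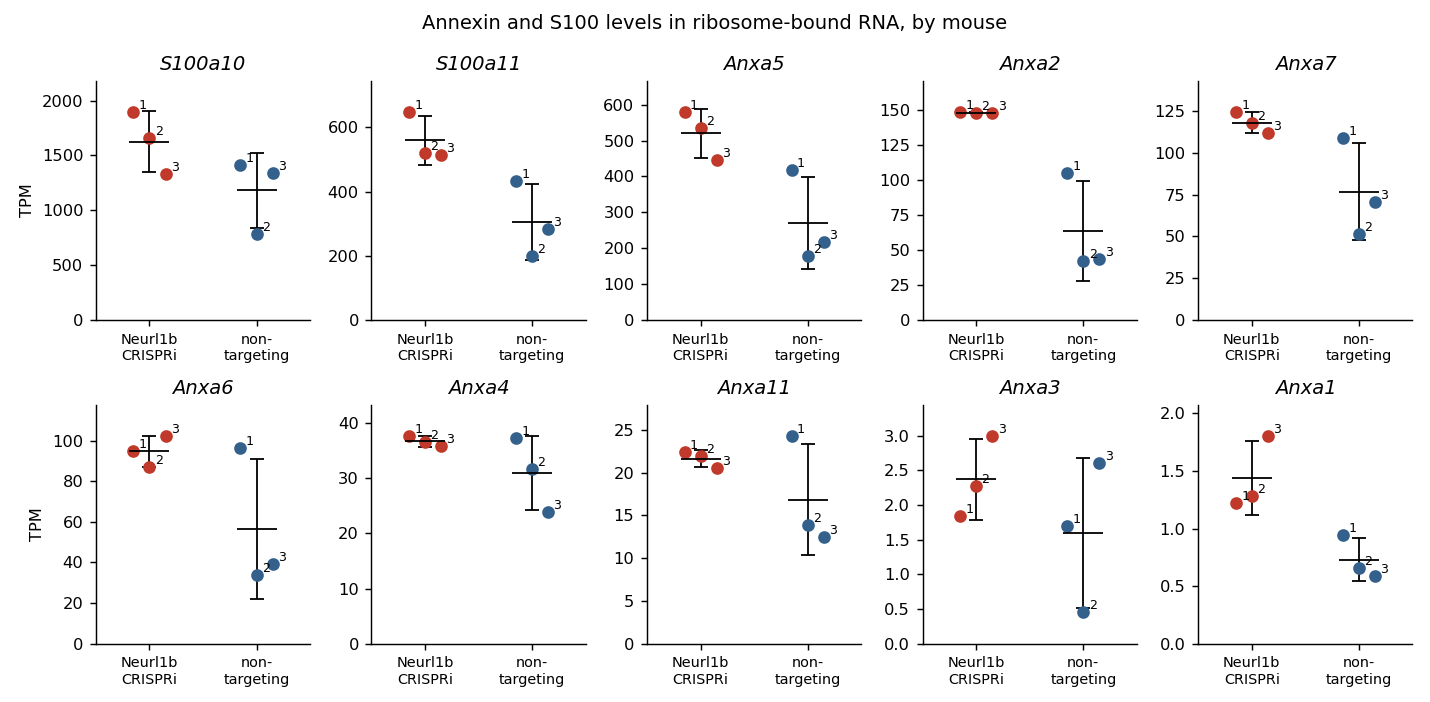
TPM of each gene (y axis, from 0) in the 3 Neurl1b CRISPRi mice (red) and the 3 non-targeting mice (blue). Points are mice with their number, and bars are the mean and SD. Non-targeting mouse 1 lies well above the other non-targeting mice for Anxa2, Anxa5 and Anxa6, at 105, 417 and 96.2 TPM.

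By level, S100a10 was the highest of the 10 in every library and Anxa6, Anxa4 and Anxa11 were in places 6, 7 and 8 in every library. S100a11 and Anxa5 followed S100a10, with S100a11 above Anxa5 in every library but that of CRISPRi mouse 2. Their means were 560 ± 75.8 and 520 ± 68.4 TPM in Neurl1b CRISPRi mice and 305 ± 118 and 271 ± 128 TPM in non-targeting mice (SD, n = 3 each). Anxa2 stood above Anxa7 in all 3 Neurl1b CRISPRi mice and below it in all 3 non-targeting mice. Anxa3 and Anxa1 were near the lower limit of the tested range, with Anxa1 above Anxa3 only in non-targeting mouse 2.

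Anxa2 encodes the annexin of the heterotetramer and had the largest fold change of the 10. It had 148, 147 and 148 TPM in Neurl1b CRISPRi mice, against 105, 42.0 and 43.8 TPM in non-targeting mice. The 3 Neurl1b CRISPRi mice were nearly equal, and all lay above every non-targeting mouse. The ratio of the means was 2.33, with a log2 fold change on TPM + 1 of 1.34 (SE 0.32). Against non-targeting mouse 1 alone the Neurl1b CRISPRi mean was 1.41 times as high, and against the mean of non-targeting mice 2 and 3 it was 3.45 times as high.

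S100a10 encodes the light chain that annexin A2 carries. It had 1895, 1656 and 1332 TPM in Neurl1b CRISPRi mice, against 1414, 786 and 1344 TPM in non-targeting mice. Here the groups overlapped, since CRISPRi mouse 3 lay below non-targeting mice 1 and 3, and the log2 fold change was 0.49 (SE 0.25). The 2 subunits of the heterotetramer thus had different patterns over the mice. The TPM of S100a10 was 12.8, 11.2 and 9.0 times that of Anxa2 in Neurl1b CRISPRi mice, against 13.5, 18.7 and 30.7 times in non-targeting mice. The ratio did not overlap between the groups and varied most among the non-targeting mice.

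**Figure D2:**
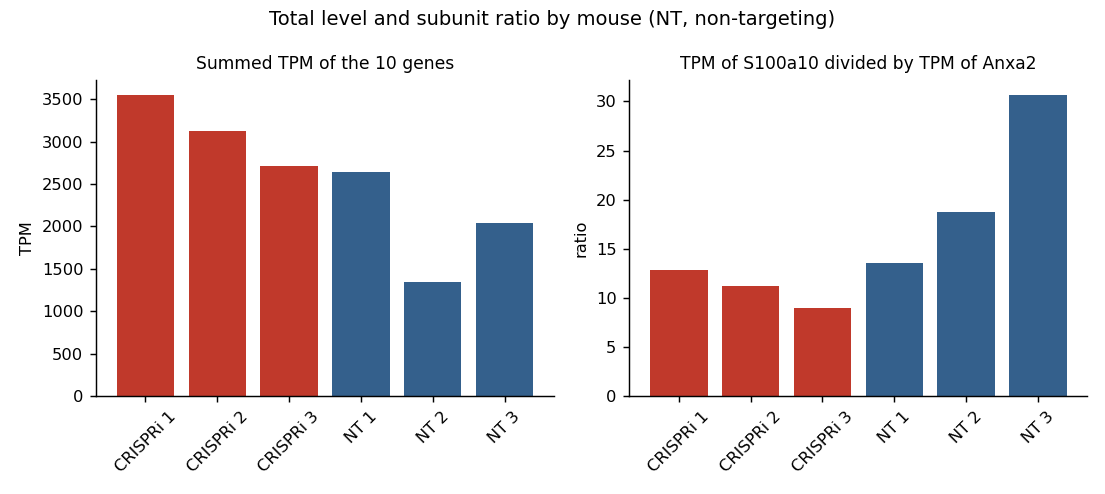
Summed TPM of the 10 genes (left, TPM) and the TPM of S100a10 divided by the TPM of Anxa2 (right, ratio) in each mouse, Neurl1b CRISPRi in red and non-targeting in blue. The sum is at least 2713 TPM in Neurl1b CRISPRi mice and at most 2637 TPM in non-targeting mice, and the ratio is at most 12.8 in Neurl1b CRISPRi mice and at least 13.5 in non-targeting mice.

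S100a11 encodes the S100 partner of annexin A1, and Anxa1 encodes that annexin, known for damping inflammation through formyl peptide receptors. S100a11 had 647, 519 and 513 TPM in Neurl1b CRISPRi mice, against 432, 199 and 282 TPM in non-targeting mice, with no overlap and a log2 fold change of 0.94 (SE 0.27). Its pseudogene S100a11-ps was listed at 0 in all libraries. Anxa1 was barely present, with 1.22, 1.28 and 1.80 TPM in Neurl1b CRISPRi mice, against 0.940, 0.660 and 0.588 TPM in non-targeting mice. These groups did not overlap either (log2 fold change 0.49, SE 0.17), but the signal was spread over 6 of 8 transcripts, none of which reached a mean of 1 TPM. The mean of Anxa1 over all libraries was 1.08 TPM, from 1.44 TPM in Neurl1b CRISPRi mice and 0.729 TPM in non-targeting mice. Anxa1 thus reached the mean of 1 TPM needed for the test only through the Neurl1b CRISPRi mice. S100a11 was far above Anxa1 in TPM, by 284 to 529 times in Neurl1b CRISPRi mice and 302 to 480 times in non-targeting mice.

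The promoters of Anxa2 and S100a11 are shown because both genes had groups that did not overlap and both hold the letters TGANTCA, the core that AP-1 (Fos and Jun dimers) recognises. The promoters of Anxa1, Anxa5 and Anxa7, whose groups did not overlap either, do not hold TGANTCA. These letters read the same on both strands. The sequences are the 250 bases before the annotated start in RefSeq for GRCm38.p6, 5′ to 3′ on the strand of the gene, with each match in capitals, at chr9:69453433-69453682 (+ strand) for Anxa2 and chr3:93520246-93520495 (+ strand) for S100a11. RefSeq entries were matched for 7 of the 10 genes, and not for Anxa3, Anxa6 and S100a10.
Anxa2: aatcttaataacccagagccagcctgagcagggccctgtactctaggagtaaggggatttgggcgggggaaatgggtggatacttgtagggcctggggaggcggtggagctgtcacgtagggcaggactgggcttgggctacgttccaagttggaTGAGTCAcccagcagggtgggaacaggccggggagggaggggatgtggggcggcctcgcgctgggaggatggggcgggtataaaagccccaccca
S100a11: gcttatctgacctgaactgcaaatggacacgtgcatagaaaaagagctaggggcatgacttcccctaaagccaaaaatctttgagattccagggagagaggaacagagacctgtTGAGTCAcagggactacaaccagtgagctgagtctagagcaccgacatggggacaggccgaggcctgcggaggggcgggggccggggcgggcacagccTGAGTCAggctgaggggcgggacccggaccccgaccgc
Counted from the RefSeq start, the match in Anxa2 lies at -95 to -89, and those in S100a11 at -136 to -130 and -38 to -32. In GENCODE vM21, Anxa2-201, which held 99.7% of the mean TPM of Anxa2, starts at chr9:69453620. S100a11-201 starts at chr3:93520488. These starts lie inside the windows shown, so the matches are nearer to them than the counts above. Of 32851 promoter windows of this length, 6.75% hold TGANTCA, against 2 of the 9 windows of the 7 genes matched here (Anxa4 and Anxa7 have 2 windows each). The TEAD core CATTCC or its reverse complement GGAATG was found in 1 of the 9 windows (Anxa1) and in 12.6% of all windows. The antioxidant response core TGACNNNGC or its reverse complement GCNNNGTCA was found in 1 of the 9 (Anxa4) and in 10.2% of all windows. Whether any factor binds there was not measured.

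Anxa5, whose product binds phosphatidylserine on exposed membrane and is used to stain dying cells, was the most abundant annexin. It had 579, 536 and 445 TPM in Neurl1b CRISPRi mice, against 417, 178 and 217 TPM in non-targeting mice. CRISPRi mouse 3 was only just above non-targeting mouse 1, and the other non-targeting mice were far below (log2 fold change 1.03, SE 0.30). Much of this TPM was assigned to Anxa5-202, a 567-nt transcript that GENCODE vM21 calls a retained intron, while the rest was almost all the coding transcript Anxa5-201 of 1731 nt. Anxa5-201 alone had 316, 286 and 241 TPM in Neurl1b CRISPRi mice, against 236, 83.1 and 95.6 TPM in non-targeting mice, so its groups did not overlap either. Its share of the gene was 53.5% to 54.6% in Neurl1b CRISPRi mice and 56.6%, 46.6% and 44.0% in non-targeting mice.

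Anxa4, an annexin of secretory epithelia such as bile duct, had the smallest fold change of the set. It had 37.7, 36.5 and 35.9 TPM in Neurl1b CRISPRi mice, against 37.2, 31.7 and 23.9 TPM in non-targeting mice, with overlap (log2 fold change 0.26, SE 0.19). The group means of its 2 main transcripts differed in opposite directions. Anxa4-201 had 28.0, 26.1 and 25.5 TPM in Neurl1b CRISPRi mice, against 27.0, 19.1 and 13.7 TPM in non-targeting mice. Anxa4-202, which starts 27674 bases further downstream in GENCODE vM21, ran the other way, with 6.58, 6.99 and 5.98 TPM in Neurl1b CRISPRi mice, against 7.14, 10.6 and 9.10 TPM in non-targeting mice. It thus made up 16.7% to 19.1% of Anxa4 in Neurl1b CRISPRi mice and 19.2%, 33.6% and 38.0% in non-targeting mice. Anxa3, once described as an inhibitor of phospholipase A2, was low and its groups overlapped, at 1.84, 2.27 and 3.0 TPM in Neurl1b CRISPRi mice against 1.70, 0.462 and 2.61 TPM in non-targeting mice.

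Anxa6 is the largest annexin, with a duplicated core, and is known for endosome and cholesterol traffic. It had 94.6, 87.0 and 102 TPM in Neurl1b CRISPRi mice, against 96.2, 33.9 and 39.0 TPM in non-targeting mice. Non-targeting mouse 1 lay within the Neurl1b CRISPRi range, and the other non-targeting mice were far below it (log2 fold change 0.89, SE 0.35). Against mouse 1 the Neurl1b CRISPRi mean was 0.983 times as high, and against the mean of mice 2 and 3 it was 2.59 times as high. The signal was divided between Anxa6-201 and Anxa6-202, which differ by a coding exon of 18 nt (exon 21 of Anxa6-202). The share of Anxa6-202 was 47.3%, 45.4% and 56.1% in Neurl1b CRISPRi mice and 49.6%, 48.4% and 44.8% in non-targeting mice, so inclusion of the exon overlapped between the groups.

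Anxa7, also called synexin, and Anxa11, which has a long disordered tail and tethers RNA granules to lysosomes, are broadly expressed. Anxa7 had 124, 118 and 112 TPM in Neurl1b CRISPRi mice, against 109, 51.2 and 70.7 TPM in non-targeting mice, without overlap (log2 fold change 0.68, SE 0.26). Anxa11 had 22.4, 21.9 and 20.5 TPM in Neurl1b CRISPRi mice, against 24.3, 13.8 and 12.4 TPM in non-targeting mice, with overlap and a log2 fold change of 0.40 (SE 0.25). In both genes non-targeting mice 2 and 3 were the lowest. Within Anxa7, the shares of the transcripts differed between libraries. Anxa7-201, which starts 222 bases upstream of the main transcript Anxa7-207 in GENCODE vM21, had 22.4, 22.9 and 24.1 TPM in Neurl1b CRISPRi mice, against 22.6, 4.78 and 5.15 TPM in non-targeting mice. Anxa7-207 had 97.5, 94.4 and 85.6 TPM in Neurl1b CRISPRi mice, against 83.3, 46.1 and 64.7 TPM in non-targeting mice. The share of Anxa7-201 was therefore 18.0% to 21.6% in Neurl1b CRISPRi mice and 20.8%, 9.34% and 7.28% in non-targeting mice. Anxa7-202, which adds a coding exon of 66 nt, stayed at or below 2.68% of the gene in all libraries.

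The cassette exons that tell Anxa6-202 from Anxa6-201 and Anxa7-202 from Anxa7-201 are shown with 20 bases of the transcript on each side. The Anxa7 exon does not concern the shares of Anxa7-201 and Anxa7-207 given above. Sequences are from the GENCODE vM21 transcripts (GRCm38), 5′ to 3′ on the strand of the gene, with the exon in capitals. The exons lie on the minus strand at chr11:54987051-54987068 for Anxa6 and at chr14:20467458-20467523 for Anxa7. Both lengths are multiples of 3, so each exon adds residues without a shift of frame.
Anxa6-202: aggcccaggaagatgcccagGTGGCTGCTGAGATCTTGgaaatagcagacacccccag
Anxa7-202: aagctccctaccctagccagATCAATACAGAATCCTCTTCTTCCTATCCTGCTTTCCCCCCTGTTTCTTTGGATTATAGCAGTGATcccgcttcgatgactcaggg
Kallisto, named in the submitters' processing notes, divides reads between overlapping transcripts by estimation, so the levels of these transcripts, which share most of their sequence, are less certain than the sums. All 57 transcripts were found in GENCODE vM21 by identifier, whatever the version.

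**Figure D3:**
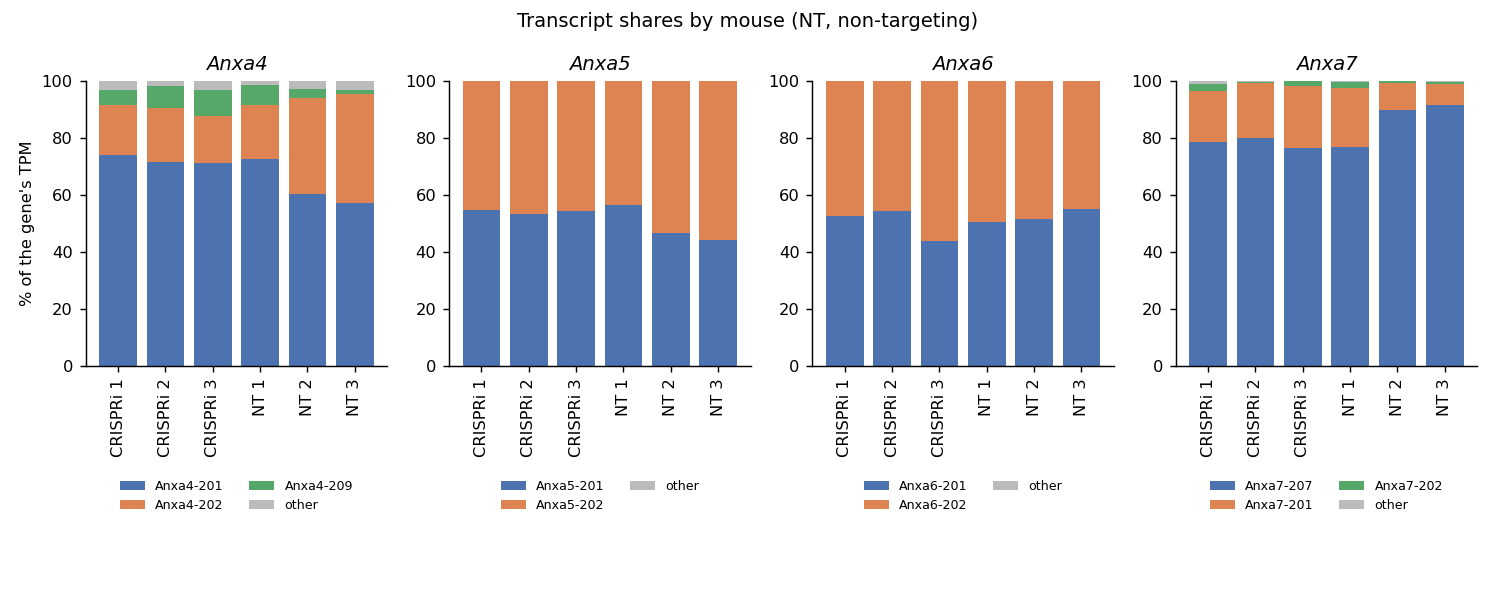
Share of each gene's TPM (y axis, %) held by its transcripts with a mean of at least 1 TPM, in each mouse, for Anxa4, Anxa5, Anxa6 and Anxa7. Non-targeting mice 2 and 3 have larger shares of Anxa4-202 (33.6% and 38.0%) and smaller shares of Anxa7-201 (9.34% and 7.28%) than the other 4 libraries, while the shares of the Anxa6 transcripts overlap between the groups.

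In the fit over all genes (limma on log2(TPM + 1)), none of the 10 passed a Benjamini-Hochberg adjusted p of 0.05, where 0.0189% of tested genes passed. Their adjusted p-values lay between 0.310 for Anxa2 and 0.504 for Anxa4. At an unadjusted p below 0.05 there were 6 of the 10 (Anxa1, Anxa2, Anxa5, Anxa6, Anxa7 and S100a11), all higher in Neurl1b CRISPRi mice, where 10.1% of tested genes were higher and 3.19% lower. The groups did not overlap for 5 of the 10 (Anxa1, Anxa2, Anxa5, Anxa7 and S100a11), against 12.5% of tested genes with all Neurl1b CRISPRi mice above all non-targeting mice and 4.57% with all below. All 10 log2 fold changes were above 0, with a median of 0.59, beside the 0.18 of all tested genes. After median-of-ratios scaling, which sets the median of all tested genes to about 0 (-0.0028), the median of the 10 was 0.43, from 0.052 for Anxa4 to 1.13 for Anxa2, and all 10 stayed above 0, where 49.6% of tested genes did. The same 6 genes then had an unadjusted p below 0.05 and were higher, where 6.38% of tested genes were. Their number was 3 (Anxa2, Anxa5 and S100a11) without non-targeting mouse 2, where 437 of 10635 tested genes were higher at that p. With that scaling as well it was the same 3, where 384 of 10568 tested genes were. The same 3 remained with that scaling without CRISPRi mouse 3, where 604 of 10563 tested genes were higher at that p. These counts describe genes picked with the contrast known. Anxa1 was tested, here and without non-targeting mouse 1, only because the Neurl1b CRISPRi mice raised its mean to the filter, so its place in the counts is no support.

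The number of calls depended on non-targeting mouse 1. Without it, 7 of the 10 passed in limma (Anxa1, Anxa2, Anxa5, Anxa6, Anxa7, Anxa11 and S100a11), all higher in Neurl1b CRISPRi mice, where 23.1% of 10558 tested genes passed as higher and 2.24% as lower. The log2 fold changes then were 1.76 (SE 0.10, adjusted p = 0.0107) for Anxa2 and 1.35 (SE 0.13, adjusted p = 0.0173) for Anxa6. With median-of-ratios scaling as well, 3 passed (Anxa2, Anxa5 and Anxa6, adjusted p of 0.0243, 0.0388 and 0.0343), where 1.76% of tested genes passed as higher and 2.75% as lower. Nothing in the labels sets this mouse apart.

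**Figure D4:**
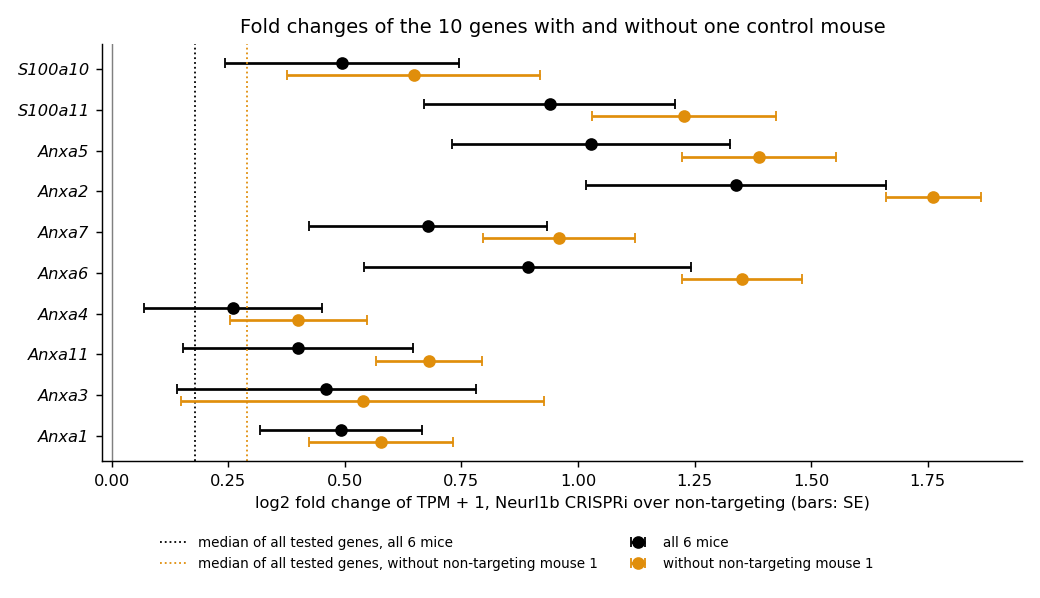
Log2 fold change of TPM + 1 (x axis, bars are SE) of each gene, Neurl1b CRISPRi over non-targeting, with all 6 mice (black) and without non-targeting mouse 1 (orange), from limma. Dotted lines are the medians of all tested genes, 0.18 and 0.29. All points lie to the right of 0, and those of Anxa2 and Anxa6 move most, to 1.76 and 1.35.

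Summed markers of some other liver cells, which also express annexins, were higher in Neurl1b CRISPRi mice too. The 8 markers of macrophages summed to 76.3 to 115 TPM in Neurl1b CRISPRi mice and 53.7 to 87.9 TPM in non-targeting mice, with overlap and with all 7 tested markers above 0 in log2 fold change. The 8 of stellate cells and fibroblasts summed to 32.5 to 45.5 TPM in Neurl1b CRISPRi mice and 12.9 to 27.4 TPM in non-targeting mice, without overlap. Those of bile duct cells summed to 23.2 to 38.5 TPM in Neurl1b CRISPRi mice and 13.8 to 32.4 TPM in non-targeting mice, with overlap and with Cftr at or below 0.0105 TPM in all libraries. Of these, the epithelial keratin Krt19 had 3.57 ± 0.540 TPM in Neurl1b CRISPRi mice and 1.57 ± 1.21 TPM in non-targeting mice (SD, n = 3 each), without overlap. The tight junction gene Cldn4 had 11.3 ± 3.72 TPM in Neurl1b CRISPRi mice and 3.10 ± 3.22 TPM in non-targeting mice (SD, n = 3 each), also without overlap. Of all tested genes, 12.5% were higher in Neurl1b CRISPRi mice without overlap. Without non-targeting mouse 1, Krt19 and Cldn4 passed in limma as higher (adjusted p of 0.0448 and 0.0198), where 23.1% of tested genes did. With median-of-ratios scaling as well, only Cldn4 passed (adjusted p of 0.121 and 0.0460), where 1.76% of tested genes did. The other 2 tested bile duct markers, Sox9 and Spp1, lay below 0 in log2 fold change (-0.35 and -0.16), with overlap. Endothelial markers summed to 18.4 to 27.3 TPM in Neurl1b CRISPRi mice and 17.3 to 23.9 TPM in non-targeting mice. The sums of neutrophil markers were 1.47 to 5.68 TPM in Neurl1b CRISPRi mice and 1.69 to 10.2 TPM in non-targeting mice. Lymphocyte markers summed to 0.860 to 1.97 TPM in Neurl1b CRISPRi mice and 1.78 to 2.48 TPM in non-targeting mice, and platelet markers to 2.48 to 3.90 TPM in Neurl1b CRISPRi mice and 2.36 to 6.22 TPM in non-targeting mice. The 7 hepatocyte markers found summed to 24605 to 33436 TPM in Neurl1b CRISPRi mice and 28392 to 57498 TPM in non-targeting mice, far above every other marker sum. None of the 30 tested markers passed in limma over all genes, while 10 had an unadjusted p below 0.05 as higher and 1 as lower, where 10.1% of all tested genes were higher and 3.19% lower. How much RNA came along from cells without the tagged ribosomal protein was not measured. The part of other cells in the annexin values was not tested.

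The other tested members of both families, 2 annexins and 9 S100 genes, lay mostly below 0 in log2 fold change. Since the 10 genes were picked with this contrast known, their difference from the rest of their families is only a description. Anxa13, an annexin known from gut and kidney epithelium, had 8.63, 8.61 and 8.35 TPM in Neurl1b CRISPRi mice, against 22.6, 13.9 and 11.7 TPM in non-targeting mice. The groups did not overlap and Anxa13 lay lower in Neurl1b CRISPRi mice (log2 fold change -0.79, SE 0.24, limma adjusted p = 0.330). Non-targeting mouse 1 was here the farthest from the Neurl1b CRISPRi mice. Anxa9 was the remaining tested annexin, at 1.01 ± 0.146 TPM in Neurl1b CRISPRi mice and 1.21 ± 0.541 TPM in non-targeting mice (SD, n = 3 each), while Anxa8 and Anxa10 stayed at or below 0.210 TPM and 0.035 TPM. Of 14 other S100 genes 9 were tested and 0 passed in limma, with 1 at an unadjusted p below 0.05 (S100a6, higher). Among all tested genes 10.1% were higher and 3.19% lower at that p. The median log2 fold change of the 9 was -0.22, and 7 of the 9 were below 0. Of all tested genes, 74.0% lay above 0 (49.6% with median-of-ratios scaling). S100a1, a calcium sensor, had 288 ± 12.7 TPM in Neurl1b CRISPRi mice and 357 ± 36.4 TPM in non-targeting mice, and S100a13 had 54.0 ± 4.94 TPM in Neurl1b CRISPRi mice and 70.2 ± 12.3 TPM in non-targeting mice, both without overlap. S100a16 had 45.1 ± 5.04 TPM in Neurl1b CRISPRi mice and 45.6 ± 3.25 TPM in non-targeting mice. S100a6, which binds annexin A11, had 26.5 ± 2.67 TPM in Neurl1b CRISPRi mice and 15.4 ± 8.54 TPM in non-targeting mice (SD, n = 3 each), again without overlap. Of all tested genes, 12.5% were higher in Neurl1b CRISPRi mice without overlap and 4.57% were lower without overlap. In RefSeq's GRCm38.p6 annotation S100a10 and S100a11 lie on chromosome 3 with 1 gene between them.

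Genes whose products work with annexins showed a mixed picture. Of 20 such genes (binding partners, the plasminogen system and formyl peptide receptors), 12 were tested and 0 passed in limma, with 3 at an unadjusted p below 0.05, all higher. Among all tested genes 10.1% were higher at that p. The median log2 fold change was 0.25 for these genes, close to the 0.18 of all tested genes. Plg, the plasminogen that annexin A2 and S100A10 capture, had 425 ± 25.1 TPM in Neurl1b CRISPRi mice and 582 ± 225 TPM in non-targeting mice. Pdcd6 and Sri, calcium-binding partners of annexins A11 and A7, had 145 ± 8.36 and 64.1 ± 6.98 TPM in Neurl1b CRISPRi mice, against 128 ± 14.8 and 50.8 ± 14.2 TPM in non-targeting mice. Plscr1, a phospholipid scramblase, had 42.7 ± 1.35 TPM in Neurl1b CRISPRi mice and 32.4 ± 9.80 TPM in non-targeting mice (SD, n = 3 each). Plat, the tissue plasminogen activator, was singled out after its values were seen, with 37.3, 28.4 and 14.5 TPM in Neurl1b CRISPRi mice, against 14.8, 0.827 and 5.17 TPM in non-targeting mice. Its groups overlapped by a narrow margin, and the log2 fold change of Plat was 2.20 (SE 0.69, adjusted p = 0.332 in limma).

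Genes of membrane repair and of the cortical cytoskeleton lay mostly above 0, as did 74.0% of all tested genes (49.6% with median-of-ratios scaling). The median of all tested genes was 0.18, and 10.1% of them were higher at an unadjusted p below 0.05. Of 18 membrane repair genes 14 were tested, all 14 had a log2 fold change above 0 (median 0.39; 0.20 with median-of-ratios scaling, where 12 were above 0), 0 passed in limma, and 3 had unadjusted p-values under 0.05. Capns1, the calpain small subunit, had 300 ± 15.5 TPM in Neurl1b CRISPRi mice and 216 ± 35.0 TPM in non-targeting mice. Among subunits of the ESCRT-III complex, which cuts off damaged membrane, Chmp2a, Chmp4b and Chmp3 had 243 ± 8.58, 199 ± 7.45 and 102 ± 6.93 TPM in Neurl1b CRISPRi mice, against 212 ± 27.2, 159 ± 12.7 and 80.8 ± 16.1 TPM in non-targeting mice (SD, n = 3 each). Of 21 cytoskeletal genes 19 were tested, 18 lay above 0 (median 0.60; 0.39 with median-of-ratios scaling), 0 passed in limma, and 9 had unadjusted p-values under 0.05, all higher. The cytoplasmic actin gene Actg1 had 812, 773 and 662 TPM in Neurl1b CRISPRi mice, against 681, 191 and 322 TPM in non-targeting mice, and Actb had 693 ± 57.1 TPM in Neurl1b CRISPRi mice and 537 ± 179 TPM in non-targeting mice. The actin regulators Pfn1 and Cfl1 had 1160 ± 95.2 and 536 ± 19.2 TPM in Neurl1b CRISPRi mice, against 957 ± 126 and 396 ± 176 TPM in non-targeting mice (SD, n = 3 each). Without non-targeting mouse 1, 9 of 14 membrane repair genes, 6 of 19 cytoskeletal genes and 5 of 12 partner genes passed in limma, all higher, where 23.1% of all tested genes did, and Anxa13 passed as lower. After median-of-ratios scaling, also without this mouse, 2, 0 and 1 of these passed as higher, where 1.76% of all tested genes did, and Anxa13, S100a1 and S100a13 passed as lower.

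**Figure D5:**
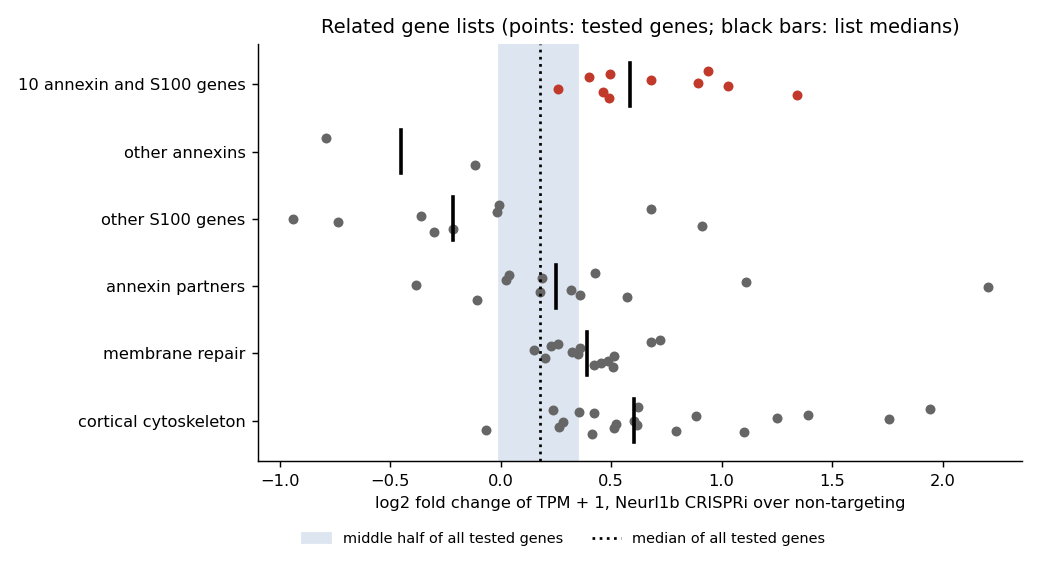
Log2 fold change of TPM + 1 (x axis) of each tested gene, Neurl1b CRISPRi over non-targeting, in the 10 annexin and S100 genes (red) and the related lists (grey), with list medians as black bars. The shaded band, -0.0093 to 0.35, holds the middle 50% of all tested genes. The 10 genes, picked with this contrast known, lie between 0.26 and 1.34, while the 2 other tested annexins and 7 of the 9 other tested S100 genes lie below 0.

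Likeness of pattern was measured as the root mean square difference of log2(TPM + 1) over the 6 libraries, after each gene was centred on its own mean. The genes nearest to Anxa2 among 10597 were Slc5a6, Ddit4, Tpd52, Vat1 and Rasl11b, at differences of 0.069 to 0.16. Anxa5 and Anxa6 ranked 14 and 25, S100a11 ranked 80 and Anxa7 ranked 309. S100a10, the binding partner, ranked 2248, at a difference of 0.56. Nearest to S100a10 were Prdx5, Rbm38, Abcg2, Psmb5 and Slc35f2, at 0.054 to 0.072. Anxa7 ranked 668 for S100a10, S100a11 ranked 2398 and Anxa2 ranked 9322. By this measure, which counts size of change as well as shape, Anxa2 lay nearer to Anxa5 and Anxa6 than to its light chain. The log2 fold change of S100a10 was smaller (0.49, against 1.34 for Anxa2), and for S100a10 non-targeting mouse 3 was as high as CRISPRi mouse 3. All these libraries enter both patterns and the genes ranked include those that differ between the groups, so the ranks are a description.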

How the data were processed

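The deposited table holds TPM for 117486 transcripts in 6 libraries, 1 per mouse, nearly all with a gene symbol. Per the submitters' processing notes, the authors used kallisto and the mm39 build; versions, transcript set and filters: not given in the sources used here. The mice are separate animals per the labels, so p-values measure the spread between mice. Transcripts were summed by symbol, leaving out 168 without one (116 to 143 TPM per library). The 10598 genes with a mean of at least 1 TPM were tested on log2(TPM + 1), a scale that understates changes of low genes, with limma 3.58.1 in R 4.3.3 (trend, two-sided test, p-values adjusted by Benjamini-Hochberg with a threshold of 0.05, no covariate), after a check on simulated data. Ratios and folds without "log2" are of mean TPM.

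The 10 genes, the related lists and the cell type markers were chosen with earlier results of these data known. Named are all 10, the 4 most abundant genes of each related list and any that passed, and the 5 nearest genes to Anxa2 and S100a10. Plat, Krt19, Cldn4, Cftr, Sox9 and Spp1 were named after their values were seen. Alternatives were pseudocounts of 0.1 and 5, no filter or 5 TPM, 3 other scalings, a constant prior, the mouse number as a block, the most abundant transcript per gene, and each mouse left out, with and without median-of-ratios scaling. GENCODE vM21 and RefSeq sequences are of GRCm38, another build than that of the table, and served for sequences and transcript structure.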

Additional observations from a re-analysis of the deposited data

How the results depend on the processing

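The median log2 fold change of the 10 genes (0.59) stayed above 0 in all 22 alternative fits, between 0.34 and 0.84, and the log2 ratio of their summed TPM (0.64) stayed between 0.28 and 0.89 in those that could change it. Of single genes, Anxa3 was at -0.020 without non-targeting mouse 2 and Anxa4 at -0.045 without non-targeting mouse 3, each with median-of-ratios scaling; the cause was not tested. None of the 10 passed in limma except without non-targeting mouse 1, so the count ranged from 0 to 7 over the fits that left out a mouse and from 0 to 3 with median-of-ratios scaling as well. Over all genes, 2 passed; 0 passed with a pseudocount of 5, no filter or quantile normalization (1404, 2132 and 1403 at an unadjusted p below 0.05), and 1 with a minimum of 5 TPM. Leaving out a mouse gave 0 to 2673, and 0 to 477 with median-of-ratios scaling. Same-numbered mice did not deviate together (correlations of residuals over genes of 0.061, -0.096 and -0.28), and the mouse number as a replicate block left 0 of the 10 and 2 genes past the threshold, with the same 6 of the 10 at an unadjusted p below 0.05 and 1486 in place of 1408 of all genes; the related lists were not refitted with the block. TPM keep no depth, so the precision of low genes such as Anxa1 and Anxa3 is unknown. Anxa1 fell below the filter without CRISPRi mouse 3, with or without median-of-ratios scaling, and with the most abundant transcript per gene. With a minimum of 5 TPM, both Anxa1 and Anxa3 were left out. The medians of these fits are over the 9 or 8 genes tested.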
